A study of Mus musculus with 15 samples.

Results

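Macrophages clear dying cells by efferocytosis, and 9 genes of that process were followed here in bone marrow-derived macrophages (BMDMs): the receptors *Mertk*, *Axl*, *Tyro3*, *Stab1* and *Timd4*, the bridging molecules *Gas6*, *Pros1* and *Mfge8*, and the engulfment signalling gene *Elmo1*. They were chosen by name for their known function, with earlier results of these data known. They are 9 of 51763 gene identifiers in the count table. All 9 passed the filter on low counts that left 16919 genes for testing. An apoptotic cell exposes phosphatidylserine (PtdSer) on its surface. Some receptors, such as TIM-4 (*Timd4*) and stabilin-1 (*Stab1*), bind PtdSer directly, whereas the TAM receptor tyrosine kinases TYRO3, AXL and MERTK bind it through the soluble ligands GAS6 and protein S (*Pros1*), and the integrin αvβ3 through MFG-E8 (*Mfge8*). ELMO1 works with DOCK1 to activate the GTPase RAC1, which drives the closing of the phagocytic cup. In resting macrophages MERTK is known as a receptor of steady-state clearance, while AXL is known to be induced under inflammatory conditions.

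RNA was sequenced from 15 libraries of wild-type BMDMs, 3 for each of 5 conditions, each lasting 24 h. The control received PBS, and the other cultures received 5 µg/mL of HMGB1 in its fully reduced (frHMGB1) or its disulfide form (dsHMGB1), LPS at 1000 ng/mL, or LPS together with 20 ng/mL IFNγ (LPS/IFNγ). HMGB1 is a nuclear protein that acts as a danger signal outside the cell, and the isoforms used differ in the redox state of its cysteines. The bone marrow came from female C57BL/6NTac mice aged 8 to 10 weeks and was pooled from 5 of them, so libraries of a condition are technical replicates and each p-value covers the spread between cultures only. The LPS dose of the LPS/IFNγ condition is 100 ng/mL in one label (the protocol) and 1000 ng/mL in another (the treatment), and the time in culture is 10 days in the labels and 8 to 9 days in the study's methods. In bulk RNA, fewer cells that make a gene and less of its RNA per cell cannot be told apart.

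The libraries held between 40934540 and 80925478 counts. All 8 macrophage markers were detected. Led by *Lyz2*, they summed to 23600 to 27200 CPM (counts scaled to a common library total) in PBS and 28300 to 28500 in frHMGB1. The sum was 20100 to 21700 in dsHMGB1, 16500 to 17200 in LPS and 13600 to 13900 in LPS/IFNγ. These sums rest on library totals, on which most genes shifted down in these 3 conditions, as given below. Between dsHMGB1 and PBS the single markers went different ways. *Cd14* (1160 to 1400 against 201 to 297) and *Fcgr1* (241 to 272 against 104 to 118) were higher, and so was *Adgre1*. *Lyz2* (12400 to 14000 against 18000 to 19300) and *Tyrobp* (650 to 771 against 1110 to 1690) were lower, and *Cd68*, *Csf1r* and *Itgam* overlapped. In LPS and LPS/IFNγ, *Cd14* (1260 to 1340 and 371 to 412) and *Fcgr1* (217 to 230 and 155 to 170) were also above PBS. There *Adgre1* overlapped with PBS and the other macrophage markers were lower. Of other cell types, 7 fibroblast markers led by *Col1a1* summed to 121 to 288 CPM in PBS and to 216 to 268 CPM in the stimulated conditions. Among them *Pdgfrb* stood at 3.14 to 5.93 CPM in PBS, 26.3 to 30 in dsHMGB1, 21.9 to 22.4 in LPS and 8.28 to 9.53 in LPS/IFNγ. *Dcn* was at 2.33 to 4.13 in PBS and 7.69 to 9.02 in LPS/IFNγ, and the rest overlapped with PBS in every condition. The 6 dendritic cell markers summed to at most 5.29 CPM in PBS, 7.89 to 8.73 CPM in LPS and 13.9 to 15 CPM in LPS/IFNγ. The dendritic markers moved apart: in LPS/IFNγ *Zbtb46* stood at 6.51 to 7.67 CPM and *Xcr1* at 6.09 to 7.13, above PBS (at most 0.578 and 2.73). *Clec9a* was at 1.8 to 3.51 in PBS, 0.118 to 0.249 in LPS and 0.778 to 1.18 in LPS/IFNγ, and *Flt3*, *Siglech* and *Cd209a* never exceeded 0.197. The neutrophil, lymphocyte and erythroid lists reached at most 0.728, 0.152 and 0.0356 CPM, with 2, 3 and 3 of their genes at 0 in every library, and the mast cell list 1.68 to 8.25 CPM. Their part in the results was not tested.

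PBS replicate 3 stood apart. Its log2 CPM correlated across genes at 0.939 and 0.934 with the other PBS libraries, which correlated at 0.993 with each other, and its counts were lower in long genes. Among 10670 protein-coding genes, the median log2 difference of PBS replicate 3 from the other PBS libraries went from 0.75 in the fifth with the shortest exons to −1.01 in the fifth with the longest. For the members, the same difference was −1.94 for *Mertk*, −1.27 for *Axl*, −0.91 for *Stab1*, −1.77 for *Timd4* and −1.97 for *Elmo1*, while *Tyro3* (0.39), *Gas6* (0.21), *Mfge8* (0.23) and *Pros1* (−0.26) lay nearer to 0. The plot of PBS replicate 3 against exon length shows that *Timd4*, at 2.17 kb a short gene, was among the lowest. Changes of the members against PBS are therefore mostly given with and without PBS replicate 3. Those of other genes are with all libraries unless stated. Among the stimulated libraries, dsHMGB1 replicate 1 had a smaller trend of the same direction against its own replicates, from 0.22 to −0.27.

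**Figure D1:**
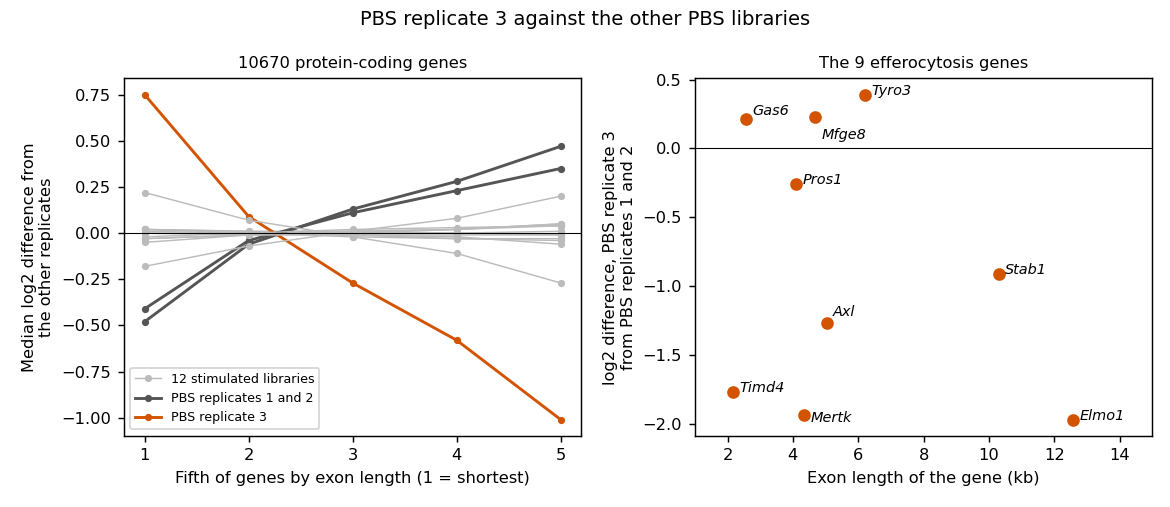
PBS replicate 3 against the other PBS libraries. Left, median log2 difference of each library from the other replicates of its condition in 5 bins of 10670 protein-coding genes by exon length, where the 12 stimulated libraries stay between −0.27 and 0.22 (both in dsHMGB1 replicate 1) and PBS replicate 3 falls from 0.75 to −1.01; right, the log2 difference of PBS replicate 3 from PBS replicates 1 and 2 for each of the 9 genes against its exon length in kb.

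Scaling between conditions also bears on the fold changes. The TMM factors of edgeR, which multiply the library totals so that most genes do not change between libraries, were 1.31 for PBS replicates 1 and 2 and 0.785 to 0.817 for LPS and LPS/IFNγ. With library totals alone in their place, an alternative chosen after seeing the data and estimated by edgeR, the median over all genes tested shifted by −0.35 on the log2 scale for dsHMGB1 against PBS, by −0.63 for LPS and by −0.66 for LPS/IFNγ, and the calls against PBS went from 3936 higher and 4092 lower to 2615 and 6689 for dsHMGB1, from 4515 and 6121 to 2653 and 9458 for LPS, and from 4914 and 5284 to 2976 and 8782 for LPS/IFNγ. Changes below are relative to the bulk of genes, and members whose call or direction differs under totals alone are named with their values.

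The 250 bases before the annotated starts of *Timd4* and *Tyro3* are shown, of which *Timd4* held 1 of the 4 motifs named below and *Tyro3* had the largest rise of all members. They were taken from RefSeq (GRCm38.p6, plus strand), whose start of *Tyro3* lies inside the GENCODE gene, and the windows were searched on both strands, with 50 bases after the start included, for the core of the interferon-stimulated response element (GAAA, any 2 bases, GAAA), the ETS-IRF composite element (GGAA, any base, TGAAA), a kappa B site (GGGA, any base, TTTCC) and an AP-1 site (TGANTCA). Capitals mark a match.
*Timd4*, chr11:46810549-46810798: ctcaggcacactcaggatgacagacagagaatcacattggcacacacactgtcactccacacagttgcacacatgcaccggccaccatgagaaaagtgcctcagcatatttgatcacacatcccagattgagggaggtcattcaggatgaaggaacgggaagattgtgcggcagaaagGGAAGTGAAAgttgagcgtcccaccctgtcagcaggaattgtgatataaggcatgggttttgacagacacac
*Tyro3*, chr2:119799264-119799513: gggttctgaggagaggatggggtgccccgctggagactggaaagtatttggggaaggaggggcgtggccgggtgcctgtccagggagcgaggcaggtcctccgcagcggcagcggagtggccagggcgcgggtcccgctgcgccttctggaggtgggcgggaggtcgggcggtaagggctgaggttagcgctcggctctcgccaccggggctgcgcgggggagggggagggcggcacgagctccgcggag
The *Timd4* window held the composite element GGAAGTGAAA at position −72 from the start, a motif present in 0.731% of all 32851 promoter windows. The *Tyro3* window held none of these 4 motifs. The interferon-stimulated response element core, the kappa B site and the AP-1 site, in 3.44%, 0.411% and 7.81% of windows, matched no member. A match is a string of letters and not a shown binding site.

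Against PBS, the TAM receptor genes rose together in LPS and LPS/IFNγ, and *Axl* was the one among them that passed the test in dsHMGB1 with all libraries. *Gas6* fell 2.23- to 2.45-fold in dsHMGB1, LPS and LPS/IFNγ, whereas *Pros1* rose 7.35-fold in LPS/IFNγ. *Timd4* rose in all 3 and *Stab1* was lower in LPS. With frHMGB1 none of the members was called.

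**Figure D2:**
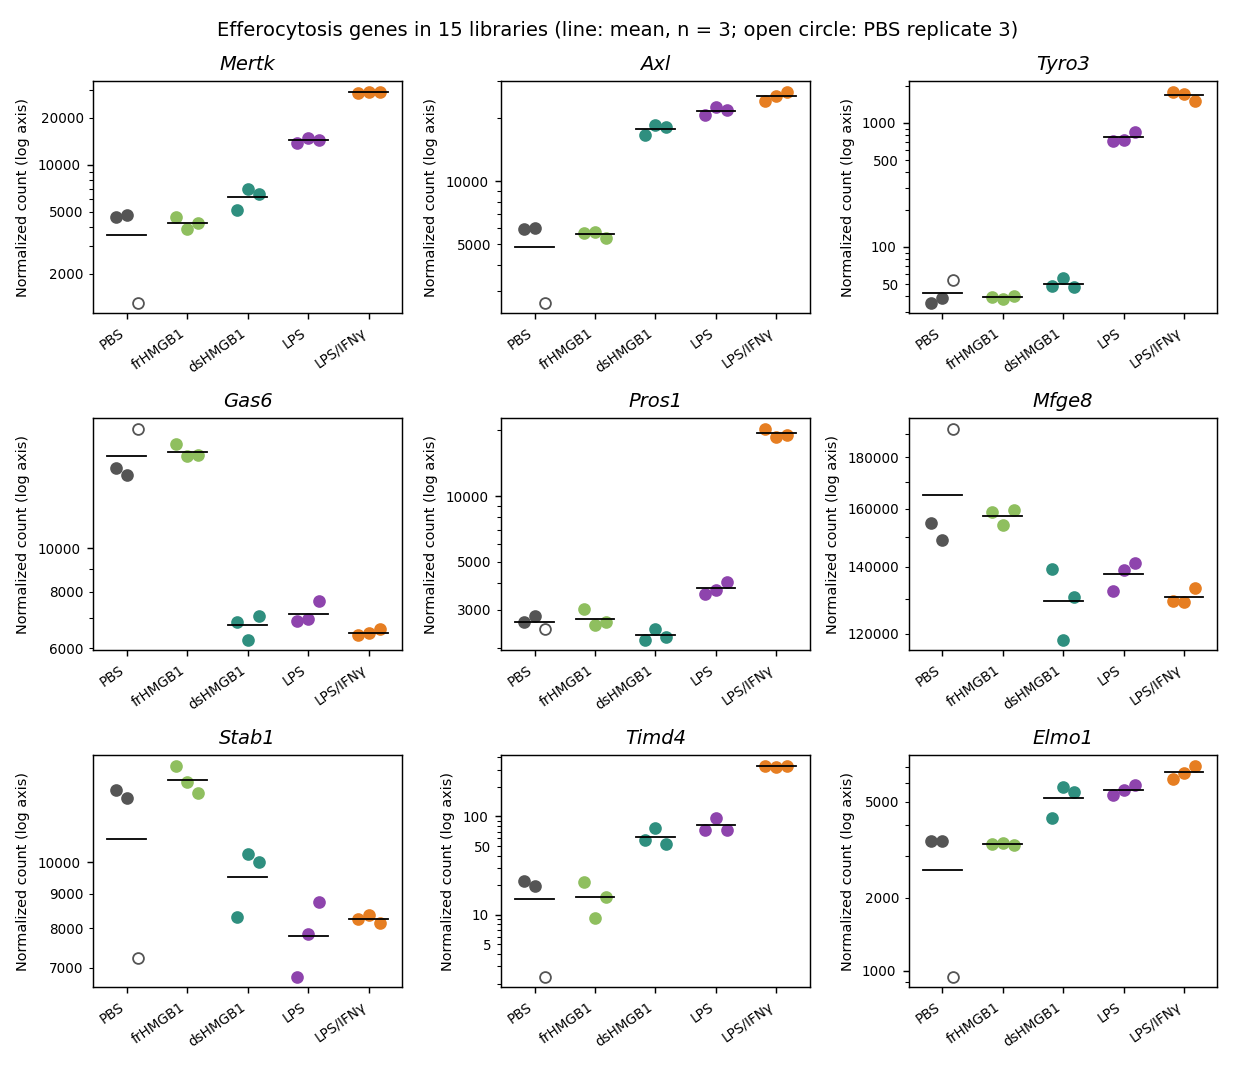
DESeq2-normalized counts of the 9 genes (log axis, range differs between panels) in each of the 15 libraries; points are libraries, lines are means of 3 and the open circle is PBS replicate 3. *Tyro3* lies between 35.56 and 55.76 in PBS, frHMGB1 and dsHMGB1 and between 1507 and 1791 in LPS/IFNγ, and *Gas6* lies between 14490 and 18350 in PBS and frHMGB1 and between 6275 and 7625 elsewhere.

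*Mertk* (ENSMUSG00000014361, chr2:128698956-128802894 in GRCm38, plus strand), the receptor tyrosine kinase that binds both GAS6 and protein S, was highest in LPS/IFNγ and next highest in LPS. Its normalized counts, scaled by DESeq2 for library size, were 4623, 4764 and 1309 in PBS and 4601, 3892 and 4208 in frHMGB1. In dsHMGB1 they were 5098, 7005 and 6470. In LPS they were 13760, 14940 and 14370, and in LPS/IFNγ 28840, 29430 and 29220. The dsHMGB1 libraries lay above every PBS and frHMGB1 library, and LPS and LPS/IFNγ overlapped with no other condition. The log2 fold change over PBS, as estimated by DESeq2, was 2.01 ± 0.34 (SE) in LPS, or 4.03-fold (edgeR quasi-likelihood test, Benjamini-Hochberg adjusted p = 0.000357), and 3.03 ± 0.34 in LPS/IFNγ, or 8.18-fold (adjusted p = 9.76e-06). In dsHMGB1 it was 0.8 ± 0.34 and missed the threshold of 0.05 (adjusted p = 0.0841), which DESeq2's own test passed (adjusted p = 0.0411). Without PBS replicate 3 the changes were smaller and their errors were too: 0.4 ± 0.11 in dsHMGB1, then called (adjusted p = 0.00362), 1.6 in LPS and 2.63 in LPS/IFNγ. dsHMGB1-stimulated BMDMs had less *Mertk* than LPS-stimulated ones, by −1.21 ± 0.34 (adjusted p = 0.0245), a call that was lost with library totals alone (adjusted p = 0.0909) and without any 1 of dsHMGB1 replicates 1 and 3 and LPS replicates 2 and 3 (adjusted p between 0.0533 and 0.085). Against LPS/IFNγ the difference was −2.24 (adjusted p = 0.000299).

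*Axl* (ENSMUSG00000002602, chr7:25757273-25788705, minus strand), the TAM receptor that depends on GAS6, rose in dsHMGB1, LPS and LPS/IFNγ. Normalized counts were 5901, 5987 and 2642 in PBS and 5651, 5700 and 5381 in frHMGB1. They were 16700, 18570 and 18170 in dsHMGB1, 20790, 22600 and 21840 in LPS, and 24070, 25420 and 26790 in LPS/IFNγ. Every library of these 3 conditions lay above every PBS and frHMGB1 library, and their ranges did not overlap with one another. dsHMGB1 raised *Axl* 3.68-fold over PBS (log2 1.88 ± 0.24, adjusted p = 2.9e-05), LPS 4.49-fold (adjusted p = 6.13e-06) and LPS/IFNγ 5.25-fold (adjusted p = 1.97e-06), and without PBS replicate 3 the folds were 2.99, 3.64 and 4.25. Between dsHMGB1 and LPS the log2 difference was −0.29 with a 95% interval of −0.75 to 0.18 (adjusted p = 0.529), and 0.05 with library totals alone. The fit without PBS replicate 3 called *Axl* lower in dsHMGB1 than in LPS (adjusted p = 0.000756) or LPS/IFNγ (adjusted p = 9.38e-07), and higher in LPS/IFNγ than in LPS (adjusted p = 0.004).

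*Tyro3* (ENSMUSG00000027298, chr2:119797733-119818104, plus strand), the remaining TAM receptor, was low in PBS, frHMGB1 and dsHMGB1 and rose with both LPS conditions. Normalized counts were 35.56, 38.47 and 53.89 in PBS, 39.55, 37.81 and 39.91 in frHMGB1 and 48.04, 55.76 and 47.07 in dsHMGB1. They were 718.7, 733.8 and 844 in LPS, and 1791, 1720 and 1507 in LPS/IFNγ. No LPS library came near those of the first 3 conditions, among which dsHMGB1 overlapped with PBS through PBS replicate 3 and not with frHMGB1. The rise was 18.5-fold in LPS (log2 4.21 ± 0.17, adjusted p = 5.27e-11) and 40.5-fold in LPS/IFNγ (5.34 ± 0.17, adjusted p = 6.97e-12). In dsHMGB1 the log2 change was 0.29 with an interval of −0.1 to 0.68 (adjusted p = 0.175), and without PBS replicate 3 it was 0.44 ± 0.2 (adjusted p = 0.0375). With library totals alone it was −0.09, so that no direction of *Tyro3* in dsHMGB1 held under both scalings, and the same was true against frHMGB1 (0.37, adjusted p = 0.0818, and −0.04 with totals alone). dsHMGB1-stimulated BMDMs held 15.2-fold less *Tyro3* RNA than LPS-stimulated ones (adjusted p = 1.12e-08) and 33.1-fold less than LPS/IFNγ-stimulated ones (adjusted p = 1.61e-10).

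Of the TAM ligands, *Gas6* fell and *Pros1* rose with LPS/IFNγ. *Gas6* (ENSMUSG00000031451, chr8:13465374-13494490, minus strand), the ligand of all 3 TAM receptors, had normalized counts of 15060, 14490 and 18350 in PBS and 16960, 15940 and 16050 in frHMGB1. They were 6880, 6275 and 7086 in dsHMGB1, 6912, 6963 and 7625 in LPS, and 6412, 6481 and 6621 in LPS/IFNγ. The first pair of conditions did not overlap with the other 3, which overlapped among themselves except that LPS/IFNγ lay below LPS. *Gas6* fell 2.37-fold with dsHMGB1 (log2 −1.24 ± 0.1, adjusted p = 5.35e-08), 2.23-fold with LPS (adjusted p = 4.27e-08) and 2.45-fold with LPS/IFNγ (adjusted p = 1.77e-08). The log2 changes were −1.13, −1.05 and −1.19 without PBS replicate 3. Between dsHMGB1 and LPS the log2 difference was −0.09 (95% interval −0.28 to 0.11, adjusted p = 0.827), and its direction turned with library totals alone, where *Gas6* was higher in dsHMGB1 by 0.25 (adjusted p = 0.0308). An exon of *Tmem255b* on the opposite strand overlaps *Gas6*, with 0 to 5 counts per library.

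*Pros1* (ENSMUSG00000022912, chr16:62854307-62929346, plus strand) encodes protein S, the TAM ligand of MERTK and TYRO3 that is also an anticoagulant. Normalized counts were 2647, 2816 and 2447 in PBS, 3016, 2552 and 2646 in frHMGB1 and 2191, 2452 and 2243 in dsHMGB1. They were 3542, 3703 and 4044 in LPS, and 20380, 18740 and 19030 in LPS/IFNγ. LPS/IFNγ stood far above every other condition, and dsHMGB1 overlapped with PBS in a single pair of libraries. The rise in LPS/IFNγ was 7.35-fold over PBS (log2 2.88 ± 0.09, adjusted p = 6.73e-11, and 7.05-fold without PBS replicate 3) and 5.15-fold over LPS (adjusted p = 7.45e-09). The smaller change in LPS, 0.51 ± 0.1 (adjusted p = 0.00188), depended on the scaling and was −0.19 with library totals alone (adjusted p = 0.192). In dsHMGB1 it was −0.2 ± 0.09 (adjusted p = 0.105), and it was called lower without PBS replicate 3 (−0.25 ± 0.09, adjusted p = 0.00433) and with library totals alone (−0.57, adjusted p = 0.00208). dsHMGB1-stimulated BMDMs held less *Pros1* RNA than LPS-stimulated ones, by −0.71 on the log2 scale (adjusted p = 0.000363), and 8.44-fold less than LPS/IFNγ-stimulated ones (adjusted p = 4e-10).

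Because both ligands are measured per kilobase of exon on a common scale, their balance can be read in each library. The ratio of *Gas6* to *Pros1* lay between 8.26 and 12 in PBS and between 9.02 and 10 in frHMGB1. It was 4.11 to 5.07 in dsHMGB1 and 3.02 to 3.13 in LPS, and in LPS/IFNγ it was 0.505 to 0.558, the only condition in which *Pros1* exceeded *Gas6*. The ratio of *Axl* to *Mertk* gave another order. It set dsHMGB1 above and LPS/IFNγ below all other conditions, while PBS overlapped with frHMGB1 and LPS. The ratio was 1.08 to 1.74 in PBS, the highest being PBS replicate 3, and 1.06 to 1.26 in frHMGB1. In dsHMGB1 *Axl* exceeded *Mertk* 2.28- to 2.82-fold, the highest being dsHMGB1 replicate 1. In LPS it did so 1.3- to 1.31-fold, and in LPS/IFNγ the ratio was 0.719 to 0.79, with *Mertk* the more abundant. These ratios do not depend on the scaling between libraries. They are given as a description, with no test.

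**Figure D3:**
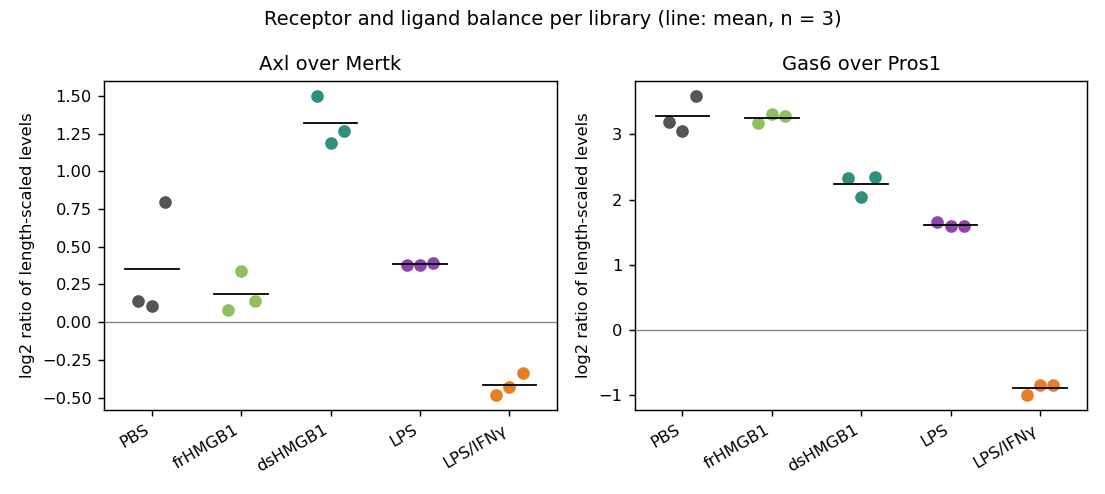
Log2 ratio of length-scaled levels in each library, *Axl* over *Mertk* (left) and *Gas6* over *Pros1* (right); points are libraries, lines are means of 3. *Axl* over *Mertk* has its highest mean in dsHMGB1 (1.32) and its lowest in LPS/IFNγ (−0.42), and *Gas6* over *Pros1* declines from a mean of 3.28 in PBS to −0.89 in LPS/IFNγ.

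*Mfge8* (ENSMUSG00000030605, chr7:79133768-79149060, minus strand), the bridge from PtdSer to αv integrins, was the most abundant member in every library and was somewhat lower in the 3 inflammatory conditions. Normalized counts were 148700 to 192200 in PBS, the highest being PBS replicate 3, and 153900 to 159300 in frHMGB1. They were 118400 to 139400 in dsHMGB1, 132300 to 141300 in LPS and 129000 to 133400 in LPS/IFNγ, with no overlap between these 3 and PBS. dsHMGB1 lowered *Mfge8* 1.28-fold against PBS (adjusted p = 0.00449), LPS 1.2-fold (adjusted p = 0.00599) and LPS/IFNγ 1.27-fold (adjusted p = 0.00293), and with no filter on low counts the first pair was not called (adjusted p = 0.0507 and 0.1). With only the 2 compared conditions in the fit, none of the 3 was called (adjusted p = 0.118, 0.29 and 0.126). Without PBS replicate 3 the log2 changes were −0.23, −0.15 and −0.23 and all were called. The size of the fall depended on the scaling: with library totals alone it was −0.7, −0.94 and −1.01 on the log2 scale, all called. Between dsHMGB1 and LPS the log2 difference was −0.09 (95% interval −0.29 to 0.11), and with library totals alone *Mfge8* was higher in dsHMGB1 by 0.25 (adjusted p = 0.0277). *Itgb3*, the β3 chain of its integrin receptor, fell by 1.66 on the log2 scale with dsHMGB1, by 2.55 with LPS and by 2.42 with LPS/IFNγ.

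Of the direct PtdSer receptors, *Timd4* rose from a very low level and *Stab1* was lower in LPS. *Timd4* (ENSMUSG00000055546, chr11:46810800-46844332, plus strand), a tethering receptor of resident tissue macrophages, had normalized counts of 21.98, 19.55 and 2.343 in PBS, the last from 2 reads, and 21.38, 9.197 and 15.1 in frHMGB1. They were 57.83, 77.03 and 52.12 in dsHMGB1, 73.68, 97.14 and 72.05 in LPS, and 325.6, 316.8 and 327.2 in LPS/IFNγ. dsHMGB1 and LPS overlapped, both lay above PBS and frHMGB1, and LPS/IFNγ lay above all. *Timd4* rose 3.99-fold with dsHMGB1 (log2 2 ± 0.38, adjusted p = 0.00261), 5.17-fold with LPS (adjusted p = 0.00065) and 20.6-fold with LPS/IFNγ (4.37 ± 0.37, adjusted p = 2.48e-06). These folds were 3.01, 3.87 and 15.5 without PBS replicate 3. With only the 2 compared conditions in the fit, the rise in dsHMGB1 was not called (adjusted p = 0.0638). The difference between dsHMGB1 and LPS, −0.37, had a 95% interval of −1.05 to 0.31 (adjusted p = 0.638), and LPS/IFNγ exceeded LPS 4-fold (adjusted p = 0.00247).

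*Stab1* (ENSMUSG00000042286, chr14:31139013-31168641, minus strand), a large scavenger receptor that also binds PtdSer, had normalized counts of 12780, 12420 and 7236 in PBS and 12660 to 13870 in frHMGB1. They were 8320 to 10280 in dsHMGB1, 6792 to 8761 in LPS and 8156 to 8358 in LPS/IFNγ. Apart from PBS replicate 3, every PBS and frHMGB1 library lay above every library of these 3 conditions. With all libraries only the fall in LPS was called (log2 −0.47 ± 0.19, adjusted p = 0.024), and it was lost without either of the other PBS libraries (adjusted p = 0.109 and 0.0945) or without LPS replicate 1 or 2 (0.123 and 0.0787). It was also lost with only the 2 compared conditions in the fit (adjusted p = 0.215). Without PBS replicate 3 all 3 conditions were called lower, dsHMGB1 by −0.41 (adjusted p = 0.000428), LPS by −0.7 (adjusted p = 6.86e-07) and LPS/IFNγ by −0.62 (adjusted p = 2.24e-06), and with library totals alone they were too (−0.58, −1.2 and −1.11). Exons of *Nt5dc2* overlap *Stab1* on the opposite strand. *Nt5dc2* also fell, by 1.37 on the log2 scale in LPS (adjusted p = 1.61e-05). The libraries were made with a stranded kit, but whether strand was used in counting is not given in the sources used here, and without strand the reads of the pair cannot be told apart.

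*Elmo1* (ENSMUSG00000041112, chr13:20090596-20608353, plus strand), the adaptor that activates RAC1 with DOCK1, had normalized counts of 3457, 3449 and 943.1 in PBS and 3321 to 3370 in frHMGB1. They were 4277, 5769 and 5509 in dsHMGB1, 5339, 5595 and 5905 in LPS, and 6249, 6620 and 7058 in LPS/IFNγ. All 9 of these libraries lay above PBS and frHMGB1. dsHMGB1 raised *Elmo1* 1.98-fold (adjusted p = 0.0378), LPS 2.14-fold (adjusted p = 0.0217) and LPS/IFNγ 2.54-fold (adjusted p = 0.00594). These became 1.5-, 1.62- and 1.91-fold, all called, without PBS replicate 3. The calls were lost with only the 2 compared conditions in the fit (adjusted p = 0.198, 0.0849 and 0.0546). They were also lost with library totals alone, where the log2 changes were 0.56 (adjusted p = 0.226), 0.34 (0.431) and 0.59 (0.176). On the per-length scale, which also rests on totals, *Elmo1* stood at 20.6 and 21.1 TPM (counts scaled for exon length and then for the total) in PBS replicates 1 and 2, at 17.4, 25.8 and 24.3 TPM in dsHMGB1, at 17.5 to 19.1 TPM in LPS and at 22.5 to 25 TPM in LPS/IFNγ. On that scale the LPS libraries lay below PBS replicates 1 and 2 and the LPS/IFNγ libraries above them. Between dsHMGB1 and LPS the log2 difference of −0.11 (adjusted p = 0.93) became 0.22 with library totals alone (adjusted p = 0.7). In dsHMGB1 the call was also lost without dsHMGB1 replicate 2 or 3 (adjusted p = 0.105 and 0.0898) and, at 0.0504 to 0.0507, without any 1 of the frHMGB1 libraries.

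Compared per kilobase of exon, the members spanned more than 3 orders of magnitude. In PBS replicates 1 and 2, *Mfge8* stood at 2480 and 2440 TPM and *Gas6* at 444 and 438 TPM. *Stab1*, *Axl* and *Mertk* lay between 80.1 and 93.4 TPM, *Pros1* at 48.6 and 53 TPM and *Elmo1* at 20.6 and 21.1 TPM. *Tyro3* and *Timd4* stayed under 1 TPM. In LPS/IFNγ *Mfge8* was still first, at 1250 to 1270 TPM, followed by *Mertk* at 301 to 310 TPM. *Axl* (217 to 237 TPM) and *Pros1* (208 to 226 TPM) overlapped with each other and exceeded *Gas6* (114 to 116 TPM), and *Tyro3* reached 10.8 to 13.1 TPM.

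Comparison by comparison, no member was called between frHMGB1 and PBS by edgeR, against 7% of all genes tested, and none by DESeq2. At an unadjusted p under 0.05 edgeR called 0 members and 16.2% of all genes. By adjusted p and without PBS replicate 3, it called 0 members and 17.5% of all genes. All 9 members are protein-coding. With all libraries and protein-coding genes only in the fit, 41 of 13025 genes were higher and 29 lower in frHMGB1 than in PBS. In dsHMGB1 against PBS, 3 members were higher and 2 lower, where of all genes tested 23.3% were higher, 24.2% lower and 47.4% called in either direction, and without PBS replicate 3 all 9 were called, 5 higher and 4 lower, against 58.8% of all genes. In LPS, 6 were higher and 3 lower, where 26.7% of all genes were higher, 36.2% lower and 62.9% called (71.2% without PBS replicate 3). In LPS/IFNγ 6 were higher and 2 lower, where 29% of all genes were higher, 31.2% lower and 60.3% called (67.7% without that library). These 4 comparisons share the PBS libraries. With protein-coding genes only, 3400 genes were higher and 3764 lower in dsHMGB1, 3913 and 4618 in LPS, and 4220 and 4700 in LPS/IFNγ. The members had median log2 changes of 0.29 with dsHMGB1, 1.1 with LPS and 2.39 with LPS/IFNγ, beside −0.1, −0.21 and −0.12 over all genes tested, and of 0.4, 0.69 and 2.09 without PBS replicate 3. Past a log2 change of 2 lay 4 members in LPS and 5 in LPS/IFNγ, all of them higher, and without PBS replicate 3 this was 1 (*Tyro3*) and 5, where 10.9% and 12.1% of all genes were that much higher, and none in dsHMGB1 (8.43% of all genes), where *Timd4* was just short of it. dsHMGB1 and frHMGB1 differed in 6 members, with *Axl* (1.68 ± 0.24) and *Timd4* (2.04 ± 0.4) higher and *Gas6*, *Pros1*, *Mfge8* and *Stab1* lower in dsHMGB1, where 27.7% of all genes were higher, 23.1% lower and 50.8% called. Of these, the calls of *Pros1* (adjusted p = 0.0357) and *Stab1* (0.0448) were lost without any of 5 and 12 libraries, respectively.

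**Figure D4:**
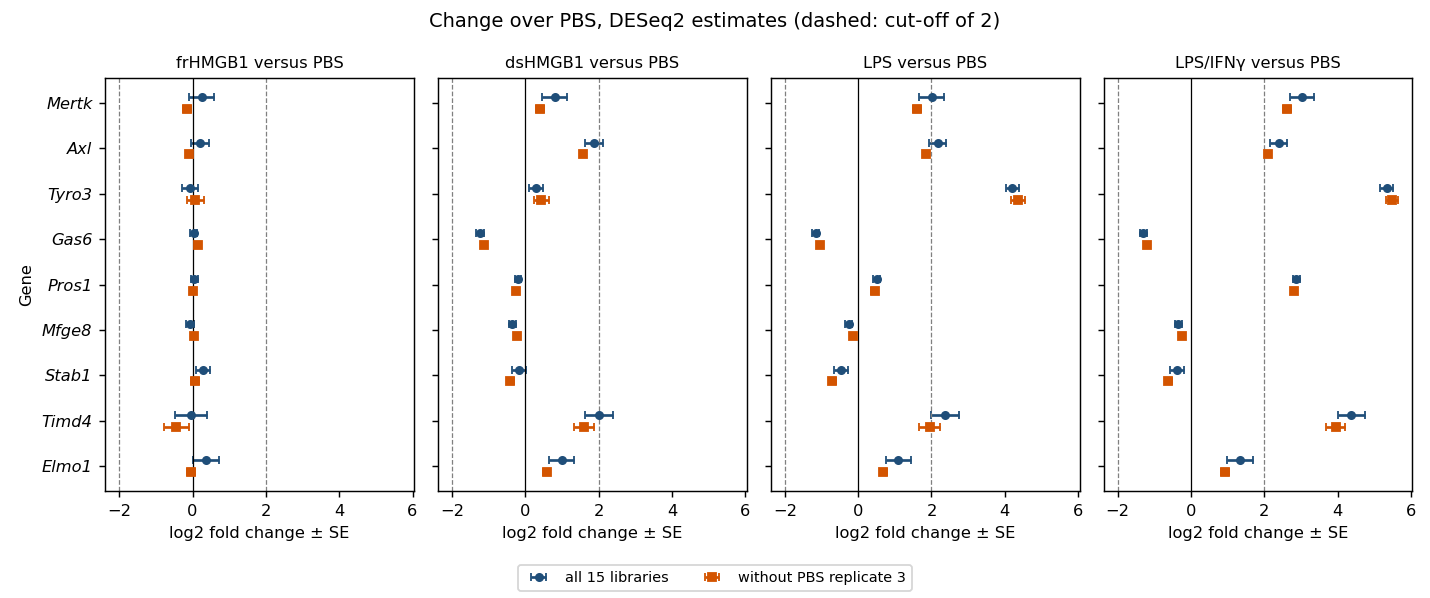
DESeq2 log2 fold change over PBS with its standard error for each gene, with all 15 libraries (circles) and without PBS replicate 3 (squares); dashed lines mark a log2 change of 2 in either direction. In LPS/IFNγ *Tyro3* (5.34) and *Timd4* (4.37) lie farthest to the right and *Gas6* (−1.3) farthest to the left, and in frHMGB1 every estimate lies between −0.45 and 0.36.

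Lower in dsHMGB1 than in LPS were *Mertk*, *Tyro3* and *Pros1*, and no member was higher, where 10.6% of all genes were lower and 26.4% called. The order of *Tyro3* and *Pros1* held with library totals alone, where *Gas6* (0.25), *Mfge8* (0.25) and *Stab1* (0.63) were called higher in dsHMGB1. Compared with LPS/IFNγ, *Mertk*, *Tyro3*, *Pros1* and *Timd4* were lower in dsHMGB1 and none was higher (16.7% of all genes lower, 33.2% called), each by more than 2 on the log2 scale, while with library totals alone *Gas6* (0.38) and *Mfge8* (0.31) were called higher. Higher in LPS/IFNγ than in LPS were 4 members, by 1.02 ± 0.34 for *Mertk* (adjusted p = 0.0379), 1.13 ± 0.13 for *Tyro3* (adjusted p = 2.18e-05), 2.37 ± 0.09 for *Pros1* and 2 ± 0.34 for *Timd4*, and none was lower, where 16.3% of all genes were higher and 25.7% called. Both comparisons share the LPS/IFNγ libraries. The call of *Mertk* was lost without any 1 of the 12 stimulated libraries (adjusted p between 0.0503 and 0.124) and with library totals alone (adjusted p = 0.0618), although its groups did not overlap. Since the LPS dose of LPS/IFNγ is given in 2 ways, an effect of IFNγ and one of a lower LPS dose cannot be told apart here.

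The wider pathway was read from a list of 81 other efferocytosis genes in 9 role groups, of which 79 were tested and *Havcr1* and *Adgrb1* were not. In dsHMGB1 29 were higher and 25 lower than in PBS, in LPS 29 and 31, in LPS/IFNγ 27 and 30, with medians of 0.12, 0.03 and −0.07 on the log2 scale, and with library totals alone the splits were 21 and 30, 23 and 40, and 20 and 45. That is 68.4%, 75.9% and 72.2% of the list called, where 47.4%, 62.9% and 60.3% of all genes tested were. Split by direction, 23.3%, 26.7% and 29% of all genes tested were higher and 24.2%, 36.2% and 31.2% lower. The role groups were not tested as sets. The genes tested include ones that are not protein-coding. With protein-coding genes only in the fit, 3400 of all 13025 genes were higher and 3764 lower in dsHMGB1. In LPS these were 3913 and 4618, and in LPS/IFNγ 4220 and 4700. In frHMGB1 2 were called (2.53% of the list, against 7% of all genes), *Msr1* (0.32 ± 0.06, adjusted p = 0.0257) and *Gpr132* (0.34 ± 0.12, adjusted p = 0.0481), both higher. With protein-coding genes only, 41 of all 13025 genes were higher in frHMGB1 and 29 lower. Of 24 alternatives, the call of *Msr1* was kept in 15 and that of *Gpr132* in 5, and both were lost without PBS replicate 1 or any 1 of the frHMGB1 libraries. The 3 other PtdSer receptors tested all fell in dsHMGB1, LPS and LPS/IFNγ: *Havcr2* (TIM-3) by 1.52, 1.48 and 1.96 on the log2 scale in that order, *Stab2* by 1.22, 1.42 and 1.18, and *Cd300lf* by 1.09, 0.87 and 1.16. Of 12 other uptake receptors, 5 rose and 5 fell in dsHMGB1. *Olr1*, the oxidized LDL receptor LOX-1, rose from 8.649 normalized counts on average in PBS to 1713 with dsHMGB1, 3426 with LPS and 15410 with LPS/IFNγ.

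Among 10 further bridging molecules, *Ptx3*, a long pentraxin that opsonizes targets, rose by 4.6 with dsHMGB1, 7.69 with LPS and 7.24 with LPS/IFNγ on the log2 scale, and 3 fell in dsHMGB1: *Calr* (−0.39 ± 0.12), *Anxa1* (−0.6 ± 0.13) and *Lgals3* (−0.65 ± 0.27). The last rested on PBS replicate 3 and was not called without it (adjusted p = 0.104). In LPS the edgeR estimate of *Lgals3* was −0.24 with all libraries (adjusted p = 0.393). Without PBS replicate 3 it was a called rise of 0.28 (adjusted p = 0.00342). The engulfment signalling group of 16 had 8 genes higher and 1 lower in dsHMGB1, where 23.3% of all genes tested were higher and 24.2% lower. The group was led by the RAC exchange factor gene *Vav3* (2.4 ± 0.26) and, in the other direction, *Dock5* (−1.02 ± 0.3). *Cd47*, the don't-eat-me signal, rose by 1.43, 1.46 and 1.39 in dsHMGB1, LPS and LPS/IFNγ, while its receptor *Sirpa* fell in LPS (−1.19) and LPS/IFNγ (−1.41) and stood at −0.21 in dsHMGB1 (adjusted p = 0.0808, and called lower without PBS replicate 3). Of the receptors for find-me signals, *Gpr132*, a lysophospholipid-responsive receptor, rose by 2.45, 3.75 and 5.44, and the fractalkine receptor *Cx3cr1* fell by 2.28, 4.24 and 4.79.

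Shedding of MERTK is carried out by ADAM17, whose maturation needs the inactive rhomboid iRhom2. *Rhbdf2*, which encodes iRhom2, rose by 2.68, 3.4 and 3.13 on the log2 scale with dsHMGB1, LPS and LPS/IFNγ. In each of these conditions 3 of the 4 shedding genes were higher, where 23.3%, 26.7% and 29% of all genes tested were. Shedding itself was not measured. Of 8 transcription factors tied to efferocytosis genes, 5 fell in each, among them *Pparg* (−3.6 ± 0.13 in LPS), whereas *Maf* rose by 1.46, 1.56 and 1.89. In the group of 18 corpse processing genes, 6 rose and 5 fell in dsHMGB1, 6 and 11 in LPS, and 6 and 9 in LPS/IFNγ. Beside both groups, 24.2%, 36.2% and 31.2% of all genes tested were lower in these conditions. *Cybb*, the NADPH oxidase subunit used in LC3-associated phagocytosis, rose by 1.91 in dsHMGB1 and 1.97 in LPS, and *Atg16l1* by 2.25 in LPS/IFNγ. The lysosomal nuclease gene *Dnase2a* fell by 1.59 in dsHMGB1 and 1.87 in LPS/IFNγ, and the cholesterol esterifying enzyme gene *Soat1* by 2.18 in LPS.

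**Figure D5:**
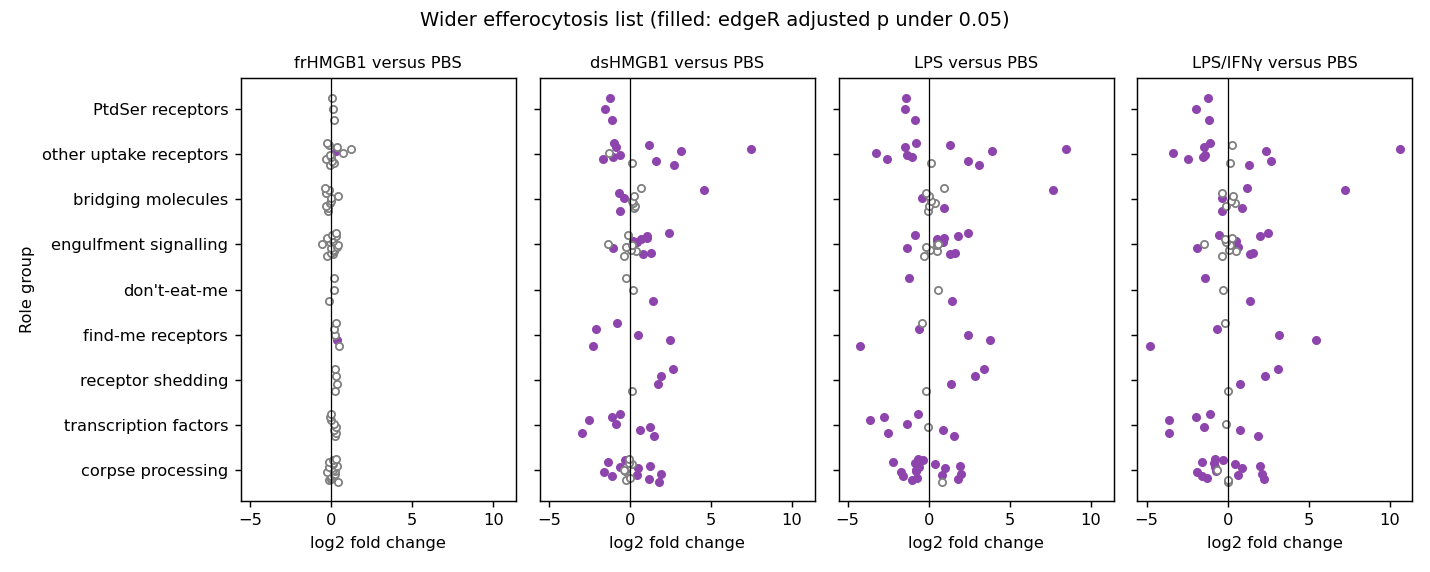
Log2 fold change over PBS of the 79 tested genes of the wider list by role group; filled points passed the edgeR test, open points did not. In frHMGB1 2 points are filled, and in the other 3 panels the PtdSer receptors lie left of 0 and *Olr1*, among the other uptake receptors, lies farthest right at 7.46, 8.46 and 10.63.

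The genes with the profile most like each member were taken by Pearson's r of log2 CPM over the 15 libraries among 10101 protein-coding genes, and they share libraries and depth with the member. For *Mertk* they were *Herpud2* and *Slc12a7* (both r = 0.995), for *Axl* *Znfx1* (0.999) and *Rapgef2* (0.998), and for *Tyro3* *Il33* (0.995) and *Sphk1* (0.993). For *Gas6* they were *Mcm7* (0.997) and *Klc4* (0.99), and for *Pros1* *Casz1* (0.992) and *Poglut1* (0.991). *Timd4* was closest to *Spin1* (0.991) and *Tgs1* (0.99), *Elmo1* to *Lrch3* (0.995) and *Nup153* (0.994), *Mfge8* to *Ramp1* (0.982) and *Dhrs1* (0.981), and *Stab1* to *Ranbp10* (0.979) and *Fry* (0.976). Each of these r stayed at 0.972 or above without PBS replicate 3.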

How the data were processed

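RNA-Seq of 15 mouse BMDM libraries was analysed, 3 per condition. The authors prepared stranded mRNA libraries, aligned reads to GRCm38 with STAR and deposited whole-number counts per gene for 51763 Ensembl identifiers, without normalization. How reads were counted, and on which gene models, is not stated here. The table held 0 columns without a sample. Per the labels, DESeq2 was used by the submitters, and per their methods with a log2 cut-off of 2 and no p.

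Identifiers were matched to GENCODE M21 (51661 found). edgeR 4.0.16 in R 4.3.3 tested 16919 genes past filterByExpr (minimum count 10, total 15) with TMM, quasi-likelihood F tests, all 15 libraries in one fit and no covariate; called means a Benjamini-Hochberg adjusted p under 0.05 over all genes tested. Normalized counts, unshrunken log2 fold changes and standard errors came from DESeq2 1.42.0. Values from alternative fits are edgeR estimates, except the log2 fold changes of the members against PBS without PBS replicate 3, which are from DESeq2. The script was tested on simulated data. Exon lengths came from GENCODE and TPM from counts per exon length.

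The members and gene lists were chosen with earlier results of these data known. Named were the 9 members, and from the wider list, in each role group, the called gene with the largest rise and fall in dsHMGB1, LPS and LPS/IFNγ and a mean of 100 or more normalized counts, and the 2 protein-coding genes with the highest Pearson's r of log2 CPM (prior count 2) to each member. *Stab2*, *Cd300lf*, *Msr1*, the macrophage, fibroblast and dendritic markers, *Nt5dc2* and *Tmem255b* were named after their values were seen. A gene and a promoter motif that were also examined are not reported here. Replicates are technical cultures of one pool, and no pair agreed within sampling noise (chi-square per degree of freedom 4.49 to 844). Alternatives were DESeq2's Wald test, RLE factors, 2 other filters, a test against a fold change of 2, fits of the 2 conditions alone, a replicate block, protein-coding genes only, each library left out, and, chosen after seeing the data, scaling by library totals alone.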

Additional observations from a re-analysis of the deposited data

How the results depend on the processing

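Of the single-gene results of the members under all alternatives, 1585 kept direction and side of the threshold, 38 gained a call, 81 lost one, 21 turned direction without a call in either fit (5 without PBS replicate 3 and 4 with library totals alone), and 3 turned direction with a call in one of them. These 3 were *Pros1* in LPS against PBS (−0.19, adjusted p = 0.192), *Gas6* in dsHMGB1 against LPS (0.25) and *Mfge8* in dsHMGB1 against LPS (0.25), all with library totals alone, where *Calr* in dsHMGB1 against LPS/IFNγ also turned, to 0.3 (adjusted p = 0.011). *Lgals3* in LPS against PBS turned to 0.28 without PBS replicate 3. With totals alone, members called lower in dsHMGB1 against PBS went from 2 to 4, members higher in dsHMGB1 from 0 to 3 against LPS and from 0 to 2 against LPS/IFNγ, and wider-list genes lower from 15 to 8 and from 16 to 7 in these. With no filter on low counts, members lower fell to 1 in dsHMGB1 and 1 in LPS against PBS, and to 1 in dsHMGB1 against frHMGB1, as with protein-coding genes only (1). Tested against a fold change of 2, members lower were 1 in each of dsHMGB1, LPS and LPS/IFNγ against PBS and in dsHMGB1 against frHMGB1 and LPS, and 2 were higher in LPS/IFNγ against LPS. In that test the wider list kept 12 higher and 8 lower in dsHMGB1 against PBS, 19 and 15 in LPS, 17 and 16 in LPS/IFNγ, 12 and 7 in dsHMGB1 against frHMGB1, 1 and 4 against LPS, 4 and 5 against LPS/IFNγ, and 2 and 3 in LPS/IFNγ against LPS. With the 2 compared conditions alone in the fit, 1 member was higher and 1 lower in dsHMGB1 against PBS, 1 lower in LPS and 1 in LPS/IFNγ, 4 higher in dsHMGB1 against frHMGB1, 1 higher against LPS and 1 against LPS/IFNγ, and 2 lower in LPS/IFNγ against LPS. The wider list then had 26 genes lower in dsHMGB1 against LPS, 27 against LPS/IFNγ, and 20 higher and 29 lower in LPS/IFNγ against LPS. For frHMGB1 against PBS the wider list had 5 genes higher and 1 lower by DESeq2, 1 lower with RLE factors, 1 higher and 1 lower with a filter of 1 CPM, 1 higher with the replicate block, and 0 higher with no filter, against a fold change of 2, with these conditions alone and with protein-coding genes only. The cause of these differences was not tested.

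With the replicate number as a block, members lower in dsHMGB1 against frHMGB1 went from 4 to 2 (*Pros1* 0.0533 and *Stab1* 0.0596, adjusted p). The numbers are shared only as numbers: of 30 same-numbered pairs, 1 had deviations correlated above 0.1 (range −0.386 to 0.375), and 6 of 15 libraries correlated best with their own number.

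Leaving out each library in turn gave 2 to 5 members higher and 2 to 4 lower in dsHMGB1 against PBS, 6 to 6 and 2 to 3 in LPS, 6 to 6 and 2 to 3 in LPS/IFNγ, 2 to 4 and 2 to 4 in dsHMGB1 against frHMGB1, 0 to 1 and 2 to 4 against LPS, 0 to 1 and 4 to 6 against LPS/IFNγ, 3 to 6 and 0 to 1 in LPS/IFNγ against LPS, and 0 to 0 in frHMGB1. For the wider list the ranges were 28 to 34 and 22 to 34, 29 to 34 and 29 to 36, 25 to 32 and 28 to 39, 24 to 33 and 23 to 34, 13 to 24 and 12 to 27, 21 to 32 and 11 to 27, 9 to 13 and 13 to 25, and 0 to 13 and 0 to 8 in the same order. Without PBS replicate 3 the members' counts reached 5 and 4 in dsHMGB1 against PBS, 4 higher against frHMGB1, and 1 higher against LPS and against LPS/IFNγ, with 1 lower in LPS/IFNγ against LPS, and the wider list reached 13 and 8 in frHMGB1 against PBS, 27 lower in dsHMGB1 against LPS and 27 against LPS/IFNγ, and 25 lower in LPS/IFNγ against LPS. Members lower in dsHMGB1 against frHMGB1 went to 2 without frHMGB1 replicate 1 or 3, dsHMGB1 replicate 1 or 3, or LPS/IFNγ replicate 3. *Lgals3* in LPS against PBS ranged from −0.44 to 0.28.

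The atypical PBS library, a single pool of marrow and 3 cultures per condition limit what can be read from small changes. *Timd4* in PBS and frHMGB1 rested on 2 to 34 reads per library.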
